A study of Mus musculus with 10 samples.

Results

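The transcripts described here are those of the phase II conjugation enzymes, in 3 families, the glutathione S-transferases (GST), the UDP-glucuronosyltransferases (UGT) and the cytosolic sulfotransferases (SULT). Members were the protein-coding genes whose symbol begins with Gst and a letter a, k, m, o, p or t, with Ugt or with Sult, followed by a digit. The deposited table lists 35275 genes, and 59 of them were members, with 20 GST, 21 UGT and 18 SULT genes. At least 1 read was found in at least 1 of the 10 libraries for 49 members, which were all 20 GST, 19 UGT and 10 SULT genes. A mean of at least 0.1 FPKM (fragments divided by gene length in kilobases and by the library's fragments on genes in units of 1000000) over the 10 libraries was reached by 39 members, 19 GST, 13 UGT and 7 SULT genes, and only these were tested.

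The libraries came from mechanically isolated epithelial cells of the mouse jejunum. All 10 mice were adult C57BL/6 animals labelled male that carried VillinCreERT2, a Cre recombinase under the villin promoter that acts in intestinal epithelium and needs tamoxifen, together with MYO5Bflox/flox alleles. The 3 control mice received corn oil. Tamoxifen (2 mg) followed by vehicle was given to the 4 MYO5B-knockout mice, and the 3 LPA-treated mice had the same dose of tamoxifen and then intraperitoneal lysophosphatidic acid (LPA, 3 mg/kg), a signalling lipid. Cells were taken on day 4. By the treatments named, tamoxifen and the vehicle after it thus differed between control and knockout mice as well as the allele, and the effects of these cannot be told apart. The comparisons asked how loss of MYO5B, a motor protein that carries vesicles to the apical membrane, changed these transcripts, and how LPA changed them once MYO5B was lost. The label of LPA-treated mouse 1 names vehicle as well as LPA, and its group was taken from its title. Below, values for single mice follow the mouse numbers: 2, 4 and 5 for control, then 3, 5, 6 and 7 for MYO5B-knockout, then 1, 4 and 5 for LPA-treated mice.

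Myo5b itself lay between 16.5 and 32 FPKM in the control group, between 10.5 and 13.6 FPKM in the vehicle-treated knockout group and between 10.3 and 11.7 FPKM in the LPA-treated group. Reads on genes ranged from 10949420 to 24470409 per library. Libraries from mouse 2 of the control group and mouse 3 of the MYO5B-knockout group stood apart, with 12242 and 12601 genes detected against 17309 to 18267 in the other 8, and with 17.4% and 18% of reads on mitochondrial genes against 1.98% to 3.5%. In each of these 2 libraries 28 members had a read, against 38 to 44 in the others. The tests are therefore given with and without both of them. Xist was read in mouse 3 of the MYO5B-knockout group and mouse 1 of the LPA-treated group, which had no Y-linked reads although labelled male. Over all 15729 genes tested with limma, MYO5B-knockout mice had 177 higher and 139 lower than control mice, or 223 higher and 375 lower when libraries were scaled by the median of their ratios, which moved the median over all genes from 0.29 to 0.039 on the log2 scale.

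Phase II enzymes couple a polar group to drugs, dietary compounds, bile acids, steroids and reactive lipids, which makes them easier to export from the cell. GST enzymes attach glutathione to electrophilic compounds, UGT enzymes of the endoplasmic reticulum attach glucuronic acid from UDP-glucuronate, and SULT enzymes of the cytosol attach sulfate from the donor PAPS. The absorptive enterocytes of the jejunum are known to express all 3 families, and conjugates leave them through efflux pumps of the apical and basolateral membranes. Transcription of these genes is known to respond to NRF2 after oxidative or electrophilic stress, to the aryl hydrocarbon receptor and to nuclear receptors, and many depend on the enterocyte factor HNF4A.

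The promoters of 4 genes are printed because the results turn on them: Gstm2 was the only member to pass the test in MYO5B-knockout mice, Gstm5 lies in the same gene cluster and had an estimate on the other side of 0, and Ugt2b5 and Ugt2a3 had the lowest estimates of the UGT family. Each holds 250 bases before and 50 bases after the RefSeq start (GRCm38.p6), 5′ to 3′ on the gene's strand, and capitals mark motif matches.
Gstm2, chr3:107986371-107986670, minus strand: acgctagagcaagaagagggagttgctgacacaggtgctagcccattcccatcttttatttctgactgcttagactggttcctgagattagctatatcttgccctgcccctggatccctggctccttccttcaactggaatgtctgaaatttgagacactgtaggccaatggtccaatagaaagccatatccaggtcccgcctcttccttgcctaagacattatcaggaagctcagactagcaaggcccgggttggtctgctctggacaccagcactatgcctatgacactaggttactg
Gstm5, chr3:107895604-107895903, plus strand: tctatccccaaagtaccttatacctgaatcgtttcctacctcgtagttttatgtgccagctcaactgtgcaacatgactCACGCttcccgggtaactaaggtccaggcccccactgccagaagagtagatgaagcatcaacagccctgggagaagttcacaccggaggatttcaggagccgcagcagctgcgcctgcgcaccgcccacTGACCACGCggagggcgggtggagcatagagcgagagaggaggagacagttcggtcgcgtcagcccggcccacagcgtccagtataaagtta
Ugt2b5, chr5:87140291-87140590, minus strand: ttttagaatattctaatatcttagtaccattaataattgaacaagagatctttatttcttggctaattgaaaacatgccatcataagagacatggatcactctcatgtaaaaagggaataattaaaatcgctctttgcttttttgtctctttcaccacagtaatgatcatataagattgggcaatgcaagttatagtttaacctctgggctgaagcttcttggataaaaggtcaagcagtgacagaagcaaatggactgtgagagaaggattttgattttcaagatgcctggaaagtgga
Ugt2a3, chr5:87337146-87337445, minus strand: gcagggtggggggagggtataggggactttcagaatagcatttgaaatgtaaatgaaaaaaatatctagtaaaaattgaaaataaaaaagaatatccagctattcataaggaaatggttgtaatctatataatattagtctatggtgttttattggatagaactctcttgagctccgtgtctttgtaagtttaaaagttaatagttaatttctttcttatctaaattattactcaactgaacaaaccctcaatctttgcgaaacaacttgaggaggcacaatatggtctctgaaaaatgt
Motifs were searched on both strands as TGACNNNGC (core of the NRF2 element), GCGTG (core of the aryl hydrocarbon receptor element) and CAAAGTCCA (core of the HNF4A element). Gstm5 held 1 match to the NRF2 core and 2 to the aryl hydrocarbon receptor core, 1 of which overlaps the NRF2 match. Gstm2, Ugt2b5 and Ugt2a3 held none of the 3 motifs in this window. A promoter was found for 51 of the 59 members. The NRF2 core occurred in 2 of these 51 (3.92%) and in 12.4% of all 32851 promoters of the same length. The aryl hydrocarbon receptor core occurred in 10 of the members' promoters (19.6%, against 32.4% of all), and the HNF4A core in 0 (against 0.475%). These are letter matches and not bound sites, and members of 1 family are related to each other.

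Between MYO5B-knockout and control mice, 1 of the 39 members tested passed limma's test at an adjusted p under 0.05, here called, and 2.01% of all genes tested did. That member was Gstm2, which was lower. The estimate was below 0 for 26 members and above 0 for 13, and the median log2 fold change was -0.57 over the members and 0.29 over all genes tested. For 4 members (Gstk1, Gstm2, Gstm7 and Gstt3) all 4 MYO5B-knockout mice were below all 3 control mice, as they were for 6.20% of all genes. No member lay above every control mouse in all 4 knockout mice, a pattern shown by 11.0% of all genes. At an unadjusted p under 0.05 there were 10 of 39 members and 2764 of 15729 genes. In bulk RNA, fewer cells of a type and less RNA per cell cannot be told apart.

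Without the 2 libraries with few detected genes, which left 2 control and 3 MYO5B-knockout mice, 9 of 39 members were called, all of them lower: Gstk1, Gstm2, Gstt1, Gstt3, Sult1b1, Ugt2a3, Ugt2b36, Ugt2b38 and Ugt2b5. Ugt2b38 reached the filter of 0.1 FPKM through the control mice, where it was high, so its call carries no weight. Among all genes 2.38% were called lower and 2.56% higher in this fit. The members' median was -0.79 and that of all genes 0.21. Of the 39 members, 19 were lower in every knockout mouse and 3 were higher, against 20.5% and 35.5% of all genes. The pair of libraries left out holds 1 mouse of each group and allows no test. Of these 9 genes, 7 were lower in MYO5B-knockout mouse 3 than in control mouse 2 and the other 2 had 0 reads in both, and 36.6% of all genes were lower in that mouse. Of the 39 members, 25 differed between this pair in the direction of the estimate from the other libraries, 5 in the opposite direction, and 9 were equal. The matching count over all genes was not made, so these numbers only describe the members. The plot of fold changes shows both fits for each member.

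**Figure D1:**
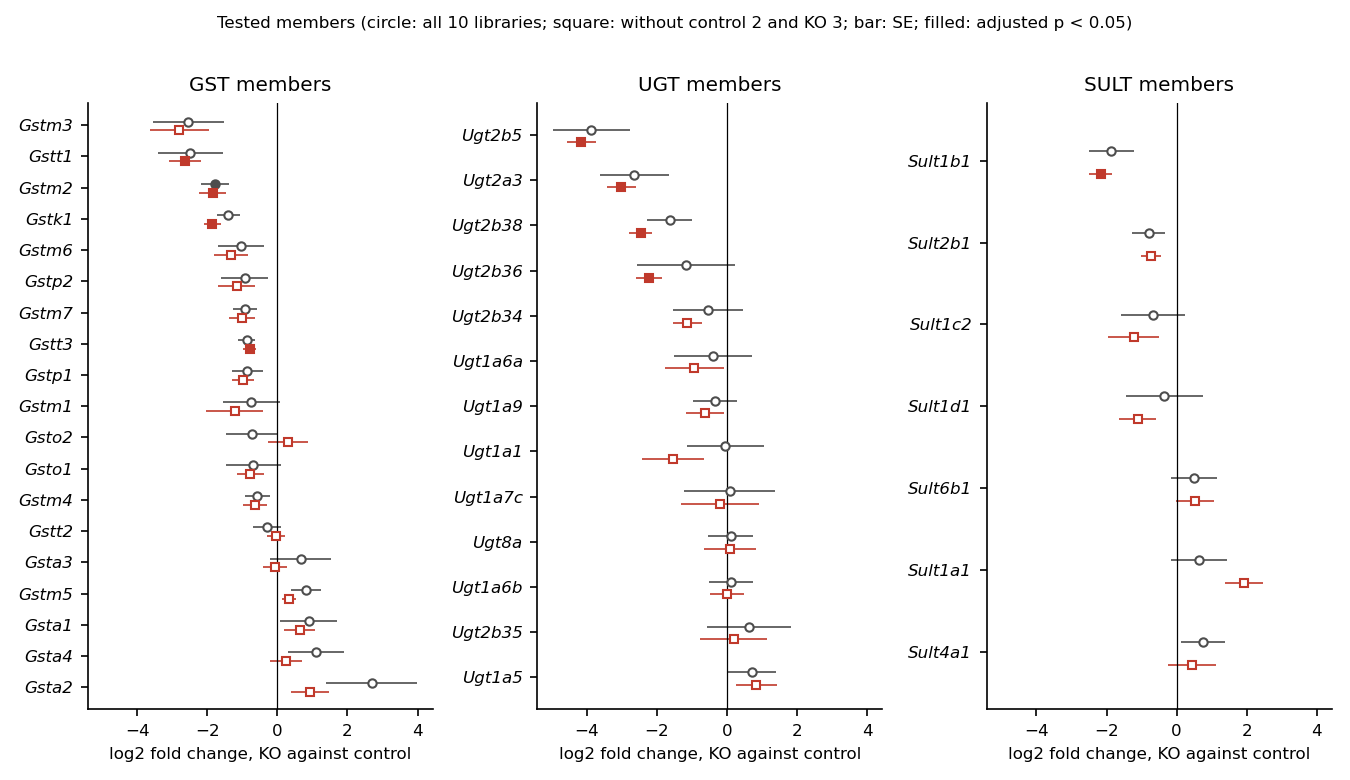
Log2 fold change of FPKM + 0.1 between MYO5B-knockout and control mice (x axis) for the 39 members tested, by family. Circles are the fit to all 10 libraries, squares the fit without the 2 libraries of few detected genes, bars are standard errors, and filled symbols have an adjusted p below 0.05, which holds for Gstm2 alone in the first fit and for 9 members in the second.

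Among the GST genes, the estimates over all 10 libraries divided by class. All 4 alpha-class members had estimates above 0, from 0.67 to 2.69 on the log2 scale, and none passed the test. Without the 2 libraries 3 of the 4 were above 0. With control mouse 2 alone left out, Gsta1, Gsta3 and Gsta4 were below 0, at -0.003, -0.53 and -0.062. Of the 7 mu-class members 6 had estimates below 0, and so did the kappa member, both pi, both omega and all 3 theta members tested, although 1 omega member was above 0 without the 2 libraries. The make-up of the GST transcripts within each library, which no single scaling factor per library can alter, differed as well. Alpha-class genes made up 13.7%, 24.1% and 24.9% of the summed GST FPKM in the control mice. They made up 39%, 61.5%, 52% and 42.9% in the MYO5B-knockout mice and 49.7%, 56.6% and 58.8% in the LPA-treated mice. Every knockout mouse of either treatment thus had a larger alpha-class share than every control mouse, including the pair of libraries with few detected genes (13.7% and 39%). Most of this share was a single gene, Gsta1. It alone made up 12.4%, 20% and 20.6% in the control mice, 28.1%, 52.3%, 45.1% and 36.7% in the knockout mice and 40.4%, 45.4% and 49.1% with LPA. The alpha-class share therefore does not show a shift of the whole class. The mu-class share was 21.6%, 36% and 21.6% in the control mice, 15.7%, 17.2%, 10.3% and 8.83% in the knockout mice and 16.8%, 11.4% and 10.4% with LPA. It was lower in every knockout mouse than in every control mouse. Within the mu class, Gstm3 alone held 6.88%, 18.8% and 10.7% of the GST sum in the control mice. In the vehicle-treated knockout mice Gstm3 held 1.32%, 4.81%, 2.47% and 1.99%. Shares within a sum are not independent, since a lower share of 1 class raises the others.

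**Figure D2:**
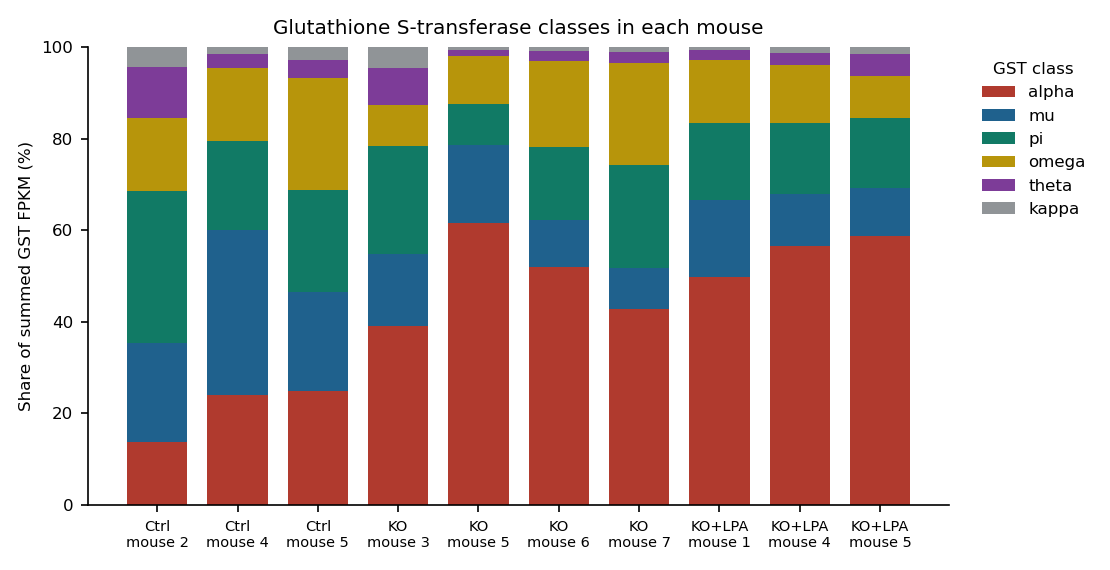
Share of the summed GST FPKM (y axis, percent) held by each GST class in each of the 10 mice (x axis). The alpha class holds 13.7% to 24.9% in the 3 control mice, 39% to 61.5% in the 4 MYO5B-knockout mice and 49.7% to 58.8% in the 3 LPA-treated mice. Gsta1 holds most of the alpha share in every mouse.

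Gsta1 (ENSMUSG00000074183, chromosome 9, 78230656 to 78242684) was the most abundant member, with a mean of 893 FPKM over the 10 libraries. It encodes an alpha-class subunit that conjugates glutathione to electrophiles and reduces lipid hydroperoxides. The control mice had 118, 904 and 631 FPKM of Gsta1, the knockout mice 201, 1987, 999 and 807 FPKM, and the LPA-treated mice 1163, 1282 and 840 FPKM. The groups overlapped, and the libraries with few detected genes were the lowest of their groups. The log2 fold change between knockout and control mice was 0.89 (SE 0.81, limma's adjusted p = 0.605), and leaving out the 2 libraries gave 0.63 (limma's adjusted p = 0.383, and between 0.208 and 1 over all alternatives), and it was -0.003 without control mouse 2. Reads of Gsta1 could have been divided with near copies, since 80.6% of the 100-base windows of its transcripts also occur in Gsta2, Gm3776 or Gm10639. Gm10639, which is no member, had 1.55, 51.4 and 28.6 FPKM in the control mice and 3.22, 112, 62.7 and 46.2 FPKM in the knockout mice. Gsta4, whose product is known for conjugating the lipid peroxidation product hydroxynonenal, had 13.1, 176 and 121 FPKM in the control mice and 72.2, 317, 134 and 124 FPKM in the knockout mice. Its estimate of 1.10 (SE 0.81, limma's adjusted p = 0.518) became 0.25 without the 2 libraries and -0.062 without control mouse 2. Gsta2 was far lower in level, with 0, 8.96 and 7.94 FPKM in control mice against 5.56, 27.2, 14.1 and 11.1 FPKM in the knockout mice, and the 3 LPA-treated mice, at 13.1, 30.4 and 9.32 FPKM, all lay above the control mice. It shared 28.4% of its windows with other genes.

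Gstm2 (ENSMUSG00000040562, chromosome 3, 107981702 to 107986453, minus strand) encodes a mu-class enzyme. The control mice had 23.2, 46.9 and 33.1 FPKM of Gstm2. Levels were 6.27, 11.7, 9.57 and 11.4 FPKM in the knockout mice and 15.4, 8.58 and 6 FPKM in the LPA-treated mice. All 7 mice that had received tamoxifen lay below the 3 that had not. Means were 34.4 ± 11.9 FPKM (SD, n = 3) in control and 9.73 ± 2.49 FPKM (SD, n = 4) in knockout mice, a log2 fold change of -1.79 (SE 0.40, limma's adjusted p = 0.0494). The call was near the threshold: it was lost with each of the 10 mice left out in turn, with adjusted p-values from limma between 0.0522 and 0.166, while the log2 fold change stayed between -2.05 and -1.54. After median-ratio scaling it was -2.08 (limma's adjusted p = 0.00643), and the fit lacking both few-gene libraries gave -1.85 (limma's adjusted p = 0.0403). Over all alternatives the adjusted p lay between 6.72e-09 (DESeq2) and 0.166 (limma). Gstm2 shared 0.357% of its windows with other genes, so its reads were hardly open to division.

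The 7 mu-class genes lie within 0.149 Mb of chromosome 3 (107895821 to 108044894). In order of position they are Gstm5, Gstm7, Gstm6, Gstm3, Gstm2, Gstm1 and Gstm4. Gstm3, the most abundant of them, had 65.6, 851 and 327 FPKM in the control mice, 9.47, 183, 54.6 and 43.9 FPKM in the knockout mice and 127, 45 and 25.4 FPKM with LPA. The spread within groups was wide, and the log2 fold change of -2.54 (SE 1.0) had an adjusted p of 0.242 from limma. Gstm1 showed the same spread, with 544 FPKM in control mouse 4 against 55.9 and 164 in the other two, and 338 FPKM in knockout mouse 5 against 50.7, 83.3 and 74.6 in the others. These same mice, control mouse 4 and knockout mouse 5, were also the highest of their groups for Gstm3. Gstm7 had 18.1, 30.3 and 22.2 FPKM in the control mice and 9.68, 17.9, 12.8 and 9.4 FPKM in the knockout mice, without overlap, but its log2 fold change of -0.93 was not called (SE 0.35, limma's adjusted p = 0.202). Gstm5 stood on the other side, with 4.35, 14.1 and 15.5 FPKM in the control mice, 14.4, 22.4, 16.9 and 16.6 FPKM in the knockout mice and 20, 24.7 and 22 FPKM with LPA. Its estimate was 0.81 (SE 0.42, limma's adjusted p = 0.347), or 0.32 when the 2 libraries were left out. Gstm5 overlaps another annotated gene, with counting not stated to use strand.

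Gstk1 (ENSMUSG00000029864, chromosome 6, 42245935 to 42250441), the kappa-class enzyme of mitochondria and peroxisomes, had 41.3, 66.3 and 81.1 FPKM in the control mice. The knockout mice had 33, 19.6, 18.7 and 22.3 FPKM and the LPA-treated mice 21.1, 36.2 and 26.9 FPKM, so that both groups lay below all control mice. Its log2 fold change in knockout mice was -1.41 (SE 0.33, limma's adjusted p = 0.0595), and leaving out the 2 libraries gave -1.86 (limma's adjusted p = 0.0136). The adjusted p of Gstk1 lay between 0.0117 (DESeq2) and 0.212 (limma) over all alternatives. Gstt1, a theta-class enzyme that acts on small halogenated compounds, had 11.1, 84.8 and 74.4 FPKM in the control mice and 1.32, 13.9, 13.5 and 10.8 FPKM in the knockout mice. Knockout mice 5 and 6 exceeded control mouse 2, and no knockout mouse reached the other controls. The log2 fold change of Gstt1 was -2.49 over all libraries (SE 0.93, limma's adjusted p = 0.198) and -2.64 without the 2 (limma's adjusted p = 0.0277). Its adjusted p lay between 0.00155 (DESeq2) and 0.394 (limma) over all alternatives. Gstt3, its neighbour on chromosome 10, was lower by a smaller amount and with little spread, at 24.7, 20.7 and 21.6 FPKM against 11.6, 11.5, 11.6 and 13.5 FPKM. Its log2 fold change was -0.88 (SE 0.24, limma's adjusted p = 0.0837), and leaving out the 2 libraries gave -0.79 (limma's adjusted p = 0.0494). Over all alternatives the adjusted p of Gstt3 lay between 0.0134 (DESeq2) and 0.224 (limma), and Gstt3 overlaps another annotated gene. The other tested gene of this cluster, Gstt2, had overlapping groups and an estimate of -0.30 (limma's adjusted p = 0.728).

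Gstp1 and Gsto1 followed Gsta1 in abundance, with means of 413 and 390 FPKM. Gstp1, the pi-class enzyme, had 302, 826 and 621 FPKM in the control mice, 162, 313, 329 and 464 FPKM in the knockout mice and 454, 406 and 251 FPKM with LPA. Gsto1, an omega-class enzyme that also reduces dehydroascorbate, had 153, 727 and 748 FPKM in the control mice, 65.4, 397, 419 and 489 FPKM in the knockout mice and 397, 356 and 155 FPKM with LPA. For both, the knockout mice overlapped the control mice only through control mouse 2. The log2 fold changes were -0.86 (SE 0.45) for Gstp1 and -0.69 (SE 0.78) for Gsto1, with adjusted p-values from limma of 0.352 and 0.685. Neither was called without the 2 libraries, at -0.98 and -0.77 (limma's adjusted p = 0.115 and 0.261). Gstp1 shared 25.1% of its windows with other genes, and 17 of the 59 members shared more than 20%.

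**Figure D3:**
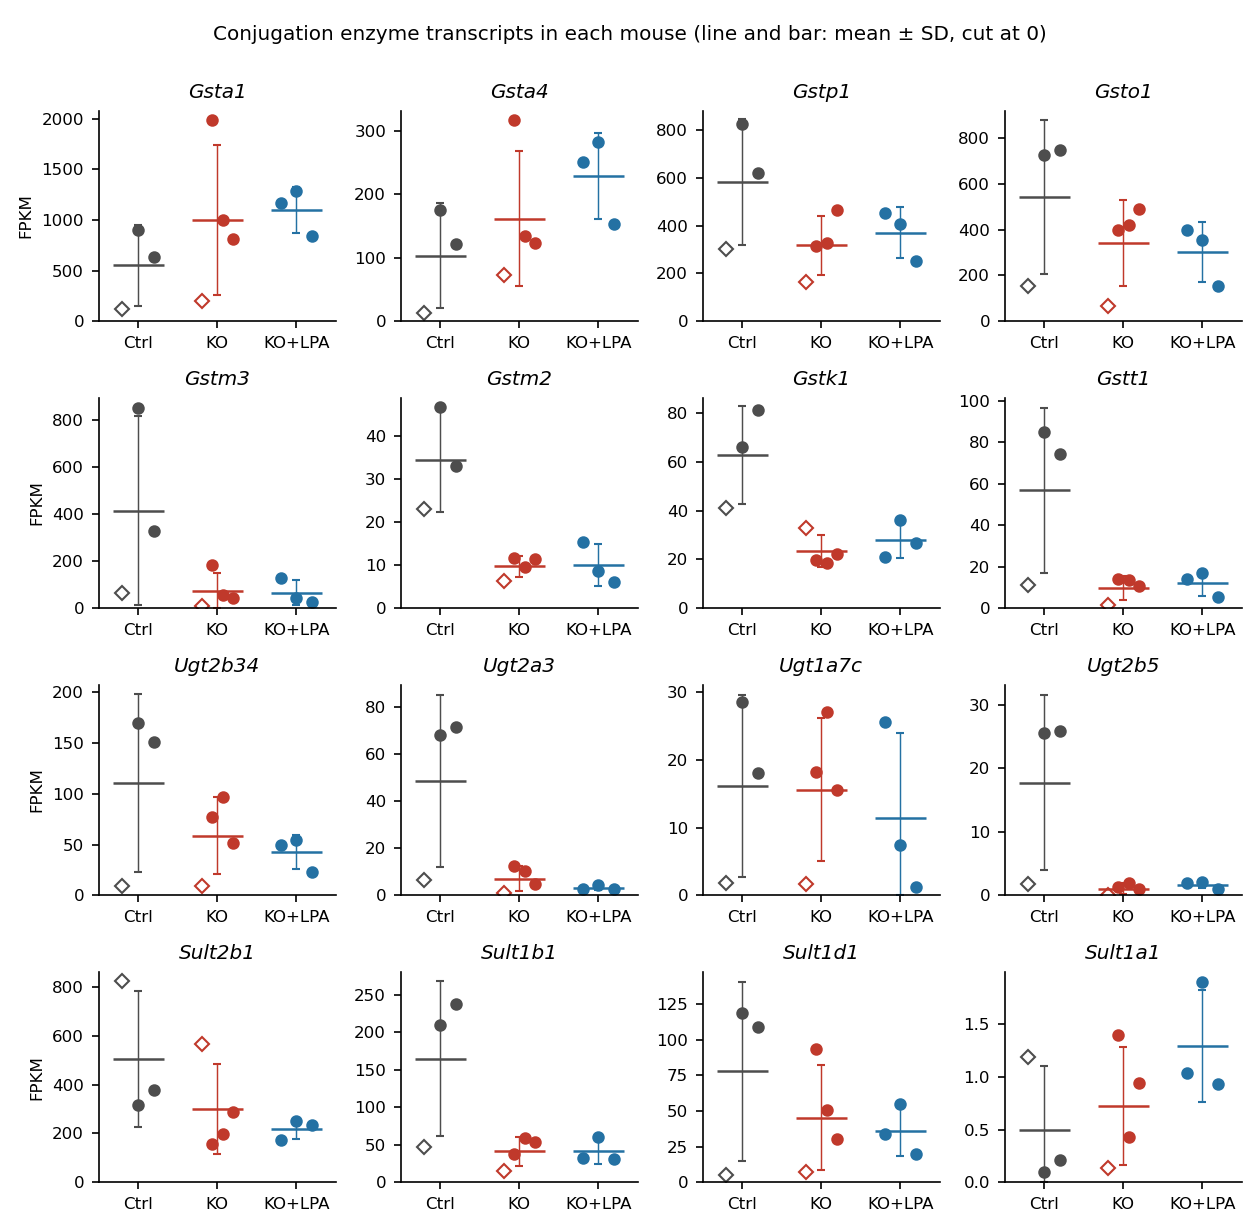
FPKM (y axis, linear from 0) of 16 members in each control (grey), MYO5B-knockout (red) and LPA-treated MYO5B-knockout mouse (blue). Lines and bars are the mean and SD with the lower bar cut at 0, and open diamonds are control mouse 2 and MYO5B-knockout mouse 3, whose libraries detected few genes. Gstm2 and Gstk1 show no overlap of either knockout group with the control mice. Once the open diamonds are set aside, Gstp1, Gsto1, Gstm3, Gstt1, Ugt2b34, Ugt2a3, Ugt2b5, Sult2b1, Sult1b1 and Sult1d1 are also lower in both knockout groups without overlap, and Sult1a1 is higher. With these libraries left out, 20.5% of all genes lie lower without overlap and 35.5% higher in vehicle-treated knockout mice, and 18.7% and 26.3% with LPA.

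The UGT family was dominated by the Ugt2 genes, which made up 89.3% to 92.3% of the summed UGT FPKM in the control mice, 78% to 82.9% in the knockout mice and 69.8% to 93.6% in the LPA-treated mice. The summed UGT level was 20, 310 and 281 FPKM in the control mice, 12.7, 123, 149 and 78.8 FPKM in the knockout mice and 90.4, 72.5 and 30.5 FPKM with LPA. Apart from the libraries with few detected genes, every knockout mouse of either treatment had less than either control mouse. Over all 10 libraries 0 of the 13 UGT members tested were called, 8 had estimates below 0 and 3 had an unadjusted p under 0.05. In the same fit 2.01% of all genes were called and 2764 of 15729 had an unadjusted p under 0.05, so these counts do not set the family apart.

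Ugt2b34 (chromosome 5, 86889767 to 86906937) was the most abundant UGT transcript, with a mean of 69.3 FPKM. It had 9.66, 170 and 151 FPKM in the control mice, 8.92, 77.5, 97.2 and 51.4 FPKM in the knockout mice and 49.9, 54.5 and 23 FPKM with LPA. The log2 fold change of -0.54 in knockout mice was small beside its error (SE 1.0, limma's adjusted p = 0.828), turned to 0.21 without knockout mouse 3, and was -1.13 without the 2 libraries (limma's adjusted p = 0.141). Ugt2a3 (ENSMUSG00000035780, chromosome 5, 87324972 to 87337195), whose human counterpart is known to glucuronidate bile acids, had 6.33, 67.8 and 71.4 FPKM in the control mice. It had 0.906, 12.3, 10.4 and 4.73 FPKM in the knockout mice and 2.53, 4.26 and 2.77 FPKM in the LPA-treated mice, and the last group lay below all control mice. Its log2 fold change in knockout mice was -2.65 (SE 0.99, limma's adjusted p = 0.197), and leaving out the 2 libraries gave -3.02 (limma's adjusted p = 0.0152). The adjusted p of Ugt2a3 lay between 0.00105 (DESeq2) and 0.411 (limma) over all alternatives. As a share of the summed UGT FPKM, which no single scaling factor per library alters, Ugt2a3 made up 31.7%, 21.9% and 25.4% in the control mice. The share was 7.16%, 10%, 6.95% and 6% in the knockout mice and 2.8%, 5.87% and 9.07% with LPA, so no knockout mouse reached the control range, in the pair of libraries with few detected genes or outside it.

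Ugt2b5 (ENSMUSG00000054630, chromosome 5, 87124960 to 87140318), a steroid- and drug-conjugating enzyme, had the lowest estimate of all members. The control mice had 1.8, 25.6 and 25.9 FPKM of it, from 37, 731 and 844 reads. In the knockout mice it had 0, 1.34, 1.95 and 0.931 FPKM, from 0, 43, 74 and 39 reads, and a count of 0 in mouse 3 allows up to 3 reads, or 0.147 FPKM. The LPA-treated mice had 1.98, 2.05 and 1.01 FPKM. Only control mouse 2 came near the knockout mice, and it was itself exceeded by knockout mouse 6. The log2 fold change between knockout and control mice was -3.87 (SE 1.1, limma's adjusted p = 0.115). Without the 2 libraries it was -4.16 (SE 0.41, limma's adjusted p = 0.00494). Over all alternatives the adjusted p lay between 8.42e-05 (DESeq2) and 0.314 (limma). Ugt2b5 shared 24.7% of its windows with Ugt2b38 and Ugt2b37, so part of its reads could belong to these, although both were rare. Its share of the summed UGT FPKM was 9.02%, 8.25% and 9.22% in the control mice, 0%, 1.09%, 1.31% and 1.18% in the knockout mice and 2.19%, 2.83% and 3.31% with LPA.

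The less abundant neighbours Ugt2b36 and Ugt2b38 were also called without the 2 libraries. Ugt2b36 had 0, 5.61 and 6.65 FPKM in the control mice and 0, 1.44, 1.56 and 0.798 FPKM in the knockout mice, a log2 fold change of -1.18 over all libraries (SE 1.4, limma's adjusted p = 0.715) and -2.23 without the 2 (limma's adjusted p = 0.0227, and between 0.0128 and 0.976 over all alternatives). Ugt2b38 was barely detected, at 0, 15 and 16 reads in the control mice, 0, 0, 1 and 0 reads in the knockout mice and 3, 6 and 2 reads with LPA. Its group means were 0.333, 0.00647 and 0.109 FPKM in the same order. The mean of 0.135 FPKM over the 10 libraries thus reached the filter of 0.1 FPKM through the control mice, which also make it lower in the knockout mice. Ugt2b38 shared 24.2% of its windows with other genes, Ugt2b5 among them, so its few reads could belong to Ugt2b5. Ugt2b35 went with neither Ugt2b36 nor Ugt2b38, with 0.309, 7.46 and 4.48 FPKM in control mice against 0.571, 8.91, 9.16 and 3.56 FPKM in the knockout mice.

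These Ugt2 genes share a stretch of chromosome 5 with Sult1 genes. The 12 members there (Ugt2b34, Ugt2b1, Ugt2b35, Ugt2b36, Ugt2b5, Ugt2b37, Ugt2a3, Ugt2b38, Ugt2a1, Sult1b1, Sult1d1 and Sult1e1, in order of position) lie within 0.702 Mb, from 86889767 to 87591611. Of the 8 that were tested, 7 had estimates below 0 in both fits, and 5 were called lower without the 2 libraries, where 2.38% of all genes were. The 5 include Ugt2b38, which reached the filter through the control mice. This stretch was singled out after its values were seen. Its genes are neighbours and their estimates come from the same mice, so they are not independent observations.

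**Figure D4:**
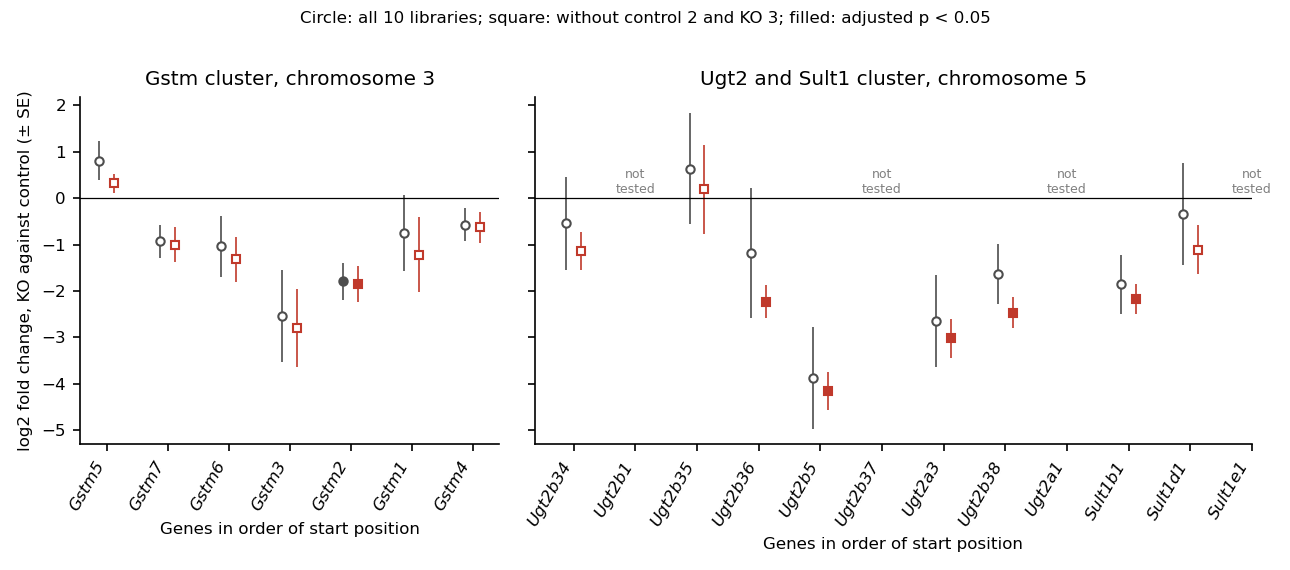
Log2 fold change between MYO5B-knockout and control mice (y axis, with its standard error) for the genes of 2 clusters in order of start position (x axis), as fitted to all libraries (circles) and without the 2 libraries of few detected genes (squares). Filled symbols have an adjusted p below 0.05; Gstm5 and Ugt2b35 are the genes whose estimates lie above 0 in both fits.

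The 9 Ugt1a members are built from 1 locus on chromosome 1 (88055388 to 88220002), where each has a first exon of its own and all share the downstream exons. Ugt1a7c received 91.9% of the 9991 reads counted on the locus over the 10 libraries, and its annotation ends 998 bases beyond that of every other Ugt1a member (88219005 to 88220002). How reads on the shared exons were assigned is not stated, so a level for a single Ugt1a gene may not stand for its first exon. Ugt1a7c, a phenol-conjugating enzyme, had 1.89, 28.5 and 18.1 FPKM in the control mice, 1.6, 18.2, 27.1 and 15.5 FPKM in the knockout mice and 25.5, 7.37 and 1.18 FPKM with LPA. The groups overlapped throughout and the log2 fold change was 0.084 (SE 1.3, limma's adjusted p = 0.985). With the Ugt1a members summed as 1 feature it was 0.13 (SE 1.25, limma's adjusted p = 0.973). Ugt1a1, which conjugates bilirubin, had 0, 2.95 and 1.85 FPKM in the control mice and 0.657, 0.522, 0.902 and 0.837 FPKM in the knockout mice. Its log2 fold change was -0.044 over all libraries and -1.54 without the 2 (limma's adjusted p = 0.992 and 0.304). Ugt1a10 and Ugt2a1 had 0 reads in all 10 libraries.

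The 3 members from the other UGT branches, which transfer other sugars, had few reads. Ugt8a, which makes galactosylceramide, had at most 6 reads in any control or knockout library and 0, 20 and 25 reads in the LPA-treated mice. Its log2 fold change with LPA was 1.19 (SE 0.64, limma's adjusted p = 1). Ugt3a2 had 11 reads in knockout mouse 7 and 2 reads in LPA-treated mouse 4. Knockout mouse 7 was also the only library with reads of the hepatic sulfotransferase Sult2a1 (4 reads) and of Sult2a2 (2 reads). In the same library Alb, the albumin gene that marks hepatocytes, stood at 47.8 FPKM, against at most 10.6 FPKM in any other. The part of liver RNA in these few reads was not tested.

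Of the 18 SULT members 8 had 0 reads in every library, among them Sult1e1, which sulfates estrogens, and 5 of the 7 Sult2a genes. Sult2b1 (chromosome 7, 45729983 to 45759612), which sulfates cholesterol and other hydroxysteroids, was the most abundant, with a mean of 338 FPKM. It had 825, 315 and 377 FPKM in the control mice, 565, 158, 197 and 286 FPKM in the knockout mice and 174, 251 and 234 FPKM with LPA. Unlike the other abundant members, Sult2b1 was highest in the 2 libraries with few detected genes. Within that pair and within the other libraries the knockout mice were lower, but the log2 fold change of -0.79 was not called (SE 0.47, limma's adjusted p = 0.419), nor was -0.73 without the pair (limma's adjusted p = 0.168).

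Sult1b1 (ENSMUSG00000029269, chromosome 5, 87513339 to 87538195), which sulfates thyroid hormones and small phenols, had 47, 209 and 238 FPKM in the control mice. The knockout mice had 14.8, 38.2, 59.1 and 53.3 FPKM and the LPA-treated mice 32.2, 60 and 31.6 FPKM. Control mouse 2 was the only control mouse in the range of the knockout mice. Means were 164 ± 103 FPKM (SD, n = 3) in control and 41.3 ± 19.8 FPKM (SD, n = 4) in knockout mice, a log2 fold change of -1.86 (SE 0.63, limma's adjusted p = 0.158). It was -2.17 without the 2 libraries (SE 0.32, limma's adjusted p = 0.0191) and -2.15 after median-ratio scaling (limma's adjusted p = 0.0394). Over all alternatives the adjusted p lay between 0.000494 (DESeq2) and 0.37 (limma). Sult1d1, a catecholamine sulfotransferase from the same cluster, had 5.24, 119 and 109 FPKM in the control mice and 7.13, 93.8, 50.4 and 30.6 FPKM in the knockout mice. Its log2 fold change was -0.35 (SE 1.1, limma's adjusted p = 0.902), and leaving out the 2 libraries gave -1.11 (limma's adjusted p = 0.233). Sult1a1, a phenol sulfotransferase, was rare, with 18, 2 and 5 reads in the control mice, 2, 33, 12 and 29 reads in the knockout mice and 35, 45 and 17 reads with LPA. Its estimate was 0.63 over all libraries (limma's adjusted p = 0.726) and 1.93 without the 2 (limma's adjusted p = 0.082).

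Between LPA-treated and vehicle-treated MYO5B-knockout mice, limma called 0 of the 39 members and 0% of all genes tested. At an unadjusted p under 0.05 there were 0 members and 459 of 15729 genes. On the recovered reads edgeR called 0 members and 0 genes, and DESeq2 called 0 members and 7 genes. The authors' deposited list for this comparison holds 9 genes labelled up with LPA. Estimates were above 0 for 29 members and below 0 for 10, with a median of 0.26 against 0.11 over all genes, but without the 2 libraries they were above 0 for 15 and below 0 for 24, with medians of -0.12 and -0.11. No member lay below all vehicle-treated knockout mice, a pattern of 0.604% of all genes, and Ugt2b38 alone lay above them, as 3.56% of all genes did. Gstm2 had a log2 fold change of -0.030 (SE 0.40), Sult1b1 of 0.11 (SE 0.63), Gstk1 of 0.26 (SE 0.33) and Ugt2a3 of -0.65 (SE 0.99). The standard errors leave room for changes in either direction in each of these genes.

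The comparison of LPA-treated knockout mice with control mice used the same control libraries. None of the 39 members was called over all libraries, and 2.32% of all genes were. Gstm2 came nearest, with a log2 fold change of -1.82 (SE 0.42, limma's adjusted p = 0.0556). Groups did not overlap for 5 lower members (Gstk1, Gstm2, Gstt3, Sult2b1 and Ugt2a3) and 2 higher members (Gsta2 and Gstm5), patterns shown by 6.38% and 20.5% of all genes. Without the 2 libraries 9 members were called lower and Sult1a1 was called higher, against 4.25% and 4.31% of all genes. The lower ones were Gstk1, Gstm2, Gstt1, Sult1b1, Ugt2a3, Ugt2b34, Ugt2b36, Ugt2b38 and Ugt2b5. Among them Ugt2b38 reached the filter through the control mice, so its call carries no weight here either. For Ugt2a3 the log2 fold change was -3.30 (SE 1.1, limma's adjusted p = 0.146), and leaving out the 2 libraries gave -4.44 (limma's adjusted p = 0.00266). Over all alternatives its adjusted p lay between 1.67e-05 (DESeq2) and 0.367 (limma). Sult1a1 had a log2 fold change of 2.44 without the 2 libraries (limma's adjusted p = 0.0363, and between 0.0363 and 0.777 over all alternatives), in which control mice 4 and 5 had 2 and 5 reads.

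Other genes of the pathway were taken from lists of supply, recycling, removal and regulation, and the values below are log2 fold changes of MYO5B-knockout over control mice unless given in FPKM. Of 7 GST genes outside the naming rule (microsomal enzymes among them) none passed, and their median was -0.23 beside 0.29 over all genes. The median of these 7 was 0.29 without the 2 libraries, and that of all genes 0.21. Mgst1 had 24.1, 159 and 163 FPKM in the control mice and 120, 390, 259 and 276 FPKM in the knockout mice, an estimate above 0 like those of the alpha class (1.49, limma's adjusted p = 0.261), and Mgst3 had -0.45. A list of other detoxifying enzymes, not all of which conjugate, had 11 genes tested and a median of -0.32. In it Ephx2, a soluble epoxide hydrolase, fell (-1.66, limma's adjusted p = 0.035), and the carbonyl reductase Cbr3 rose (2.22, limma's adjusted p = 0.0379). Cbr1, the most abundant of that list, had -0.45. Of 17 genes of glutathione synthesis and recycling, Ggt1, the brush border enzyme that cleaves extracellular glutathione and its conjugates, fell from 887, 537 and 614 FPKM to 211, 138, 230 and 286 FPKM (-1.67, limma's adjusted p = 0.0323). Chac1, which degrades glutathione inside the cell, rose from 0.277, 0.476 and 0.174 FPKM to 1.84, 39.8, 8.07 and 5.5 FPKM (4.30, limma's adjusted p = 0.0377). The most abundant genes of that list, Gpx2 and Anpep, had -0.18 and -1.15 and were not called, and the list's median was -0.18.

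None of 10 tested genes of UDP-glucuronate and PAPS supply passed, with a median of 0.22. The most abundant were Papss2, which makes PAPS, at 0.77 and Bpnt1, which removes its spent form, at -0.18. Of 8 deconjugating enzymes tested, Gusb, the lysosomal enzyme that splits glucuronides, rose from 15.6, 8.87 and 6.93 FPKM to 46.3, 52, 46.1 and 36.1 FPKM (2.17, limma's adjusted p = 0.00854), while Acy1 had -0.13 and the median was -0.0022. Gusb stayed at 65.8, 62.1 and 52.9 FPKM with LPA. Of 10 efflux transporters none passed, with a median of -0.14, and the most abundant, Slc22a18 and Abcb1a, had -1.14 and 0.02. Among 25 regulators, Nr1h3 and Vdr, receptors for oxysterols and for vitamin D, fell (-1.67 and -1.62, limma's adjusted p = 0.0323 and 0.0485), with a median of 0.30. The abundant regulators Hnf4a and Cdx2 had 0.41 and -0.32. Of 15 NRF2 targets outside the rule 1 passed: Akr1b8, an aldose reductase, rose from 2.33, 14.3 and 7.36 FPKM to 25, 86.3, 72.2 and 96.7 FPKM (3.29, limma's adjusted p = 0.0283). The list's median was 0.52, and its most abundant genes Fth1 and Ftl1 had -0.73 and -0.07. Without the 2 libraries Ggt1 and Cbr3 were no longer called (limma's adjusted p = 0.0525 and 0.0723), the other genes named from these lists as passing still were, and the efflux pump genes Abcc1 and Abcc4 were called higher (limma's adjusted p = 0.0373 and 0.0307).

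Markers of cell types were examined in the same fits. Of 20 enterocyte markers 15 had estimates below 0 in MYO5B-knockout mice with a median of -0.82, 1 (Lct, lactase) was called, and the summed level was 44597 to 58277 FPKM in control, 22662 to 41451 in knockout and 37316 to 66582 in LPA-treated mice. The defining enterocyte genes Fabp1 and Rbp2, with means of 10599 and 9622 FPKM, were the most abundant markers and were high in all 10 libraries. They weigh most in these sums. Between LPA-treated and control mice the 20 enterocyte markers had a median of -0.81, with 2 called lower and 0 higher. Without the 2 libraries with few detected genes that median was -1.29, with 8 called lower and 0 higher, against 4.25% and 4.31% of all genes. All 14 proliferation markers had estimates above 0 with a median of 1.28, 1 (Rrm2, with Pcna the most abundant) was called, and the summed level was 123 to 156, 305 to 479 and 204 to 404 FPKM in the same order of groups. All 15 leukocyte markers tested had estimates below 0 with a median of -2.02, 4 (Cd52, Gzma, Cd7 and Cd79a) were called, and the summed level was 1465 to 2437, 54 to 964 and 170 to 249 FPKM, with Cd74 the most abundant. Neither goblet and Paneth markers (12 tested, median -0.22, led by Zg16 and Defa24) nor stroma and vessel markers (11 tested, median -0.50, led by Vim and Acta2) had a called gene. Hepatocyte and pancreas markers summed to 3.23 to 65.2 FPKM over the 10 libraries, led by Cela1 and Alb, with no called gene among 6 tested and with Prss2 and Amy2a5 at 0 reads in all. Without the 2 libraries 4 enterocyte markers were called lower (Lct, Mgam, Slc5a1 and Cyp3a11), 2 proliferation markers (Aurka and Rrm2) and the goblet marker Agr2 were called higher, 2 leukocyte markers (Cd52 and Cd79a) were called lower, and no stroma, hepatocyte or pancreas marker was called. Gzma and Cd7 were not among them (limma's adjusted p = 0.0796 and 0.0778). The part of these shifts in the members' values was not tested.

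The pattern of Gstm2 over the 10 libraries was most like those of AI427809, Wdtc1, Rcan1, Spns3 and Ces1e, with Pearson correlations of log2(FPKM + 0.1) of 0.985, 0.976, 0.962, 0.946 and 0.945. These points share library depth and group, and the correlations are a description. AI427809 averaged 11.9 FPKM in control, 0.479 in knockout and 0.49 in LPA-treated mice. None of the 5 is a member.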

How the data were processed

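Poly(A) RNA was sequenced from jejunal epithelial cells of 10 separate mice, so p-values measure spread between mice. The authors deposited FPKM per gene and mouse, which were used as deposited. The authors also deposited read counts of 9 genes in 7 libraries, in a list labelled as genes up in LPA-treated against vehicle-treated knockout mice. Per the labels, the submitters' processing notes name STAR 2.5, TopHat, HTSeq 0.6.1, DESeq2 and the builds GRCm38 and mm10, with no role or strand setting. Deposited fold changes, p-values and enrichment results of the authors were not used, nor were 7 further columns of repeated FPKM. FPKM times gene length gave whole reads (tolerance 0.01 reads), and 63 of 63 deposited counts equalled them.

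All genes whose mean reached 0.1 FPKM were tested on log2(FPKM + 0.1) with limma 3.58.1 (R 4.3.3), in 1 model of the 3 groups with a mean-variance trend, two-sided, with Benjamini-Hochberg adjustment over all genes and a threshold of 0.05. A fold change on this scale understates that of low genes. The study states no test for its RNA sequencing. The code was tested on simulated data. Alternatives were other pseudocounts (0.01 and 1), filters (none, mean of 1 FPKM), scalings (median-ratio, quantile), no trend, each mouse left out, groups of libraries left out, a replicate block, and edgeR 4.0.16 and DESeq2 1.42.0 on the recovered reads. A count of 0 allows up to 3 reads, for counting error only.

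The members and lists were chosen with earlier results of these data known. By rule, the text names members called in any comparison, the 4 most abundant members of each family, and, from other lists, the called genes and the 2 most abundant. All other members named singly (such as Gstk1, Gstt1, Gstt3, Gsta2, Gsta4, Gstm1, Gstm5, Gstm7, Ugt2b35, Ugt2b36 and Ugt2b38), Gm10639, Abcc1 and Abcc4 were chosen after their values were seen. Promoters came from RefSeq (GRCm38.p6). A further motif is not reported here. Shared sequence was counted in 100-base windows of GENCODE M21 transcripts, which held 59 of 59 members. Coordinates are those of the deposited table on GRCm38.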

Additional observations from a re-analysis of the deposited data

Results flagged for a closer look

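The 4 MYO5B-knockout values of each of 27 members were examined. For 3 members 1 mouse was marked as far from the rest, and chance alone marks about 1 in 20 such groups. Gstt3 in MYO5B-knockout mouse 7 was at 13.5 FPKM, while the other 3 knockout mice lay between 11.5 and 11.6 FPKM. All 4 remained below the control mice. Gstm1 in MYO5B-knockout mouse 5 was at 338 FPKM, while the other 3 lay between 50.7 and 83.3 FPKM. Ugt2b38 in MYO5B-knockout mouse 6 was at 0.0259 FPKM, which was 1 read, while the other 3 had 0 reads. Any read beside 3 values of 0 would be marked, so the rate of 1 in 20 does not apply to Ugt2b38.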

How the results depend on the processing

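The number of members called lower between MYO5B-knockout and control mice (1 as reported) was 0 with a pseudocount of 0.01, without the filter and without the trend, 2 at a mean of at least 1 FPKM, 5 with median-ratio scaling, 4 with quantile normalization, 9 without the 2 libraries with few detected genes, 9 with median-ratio scaling without these 2 (an alternative added after seeing the data), 4 with edgeR and 12 with DESeq2. It was 0 to 2 with 1 mouse left out, where 14 to 153 of all genes were called lower. It was 2 without control mouse 2, where 143 of all genes were. The genes called lower among all tested numbered 139 as reported, 101, 83 (of 22484), 83, 179 (of 10575), 375, 438, 375, 577, 308 (of 13594, with 31 members tested) and 1041 (of 18123, with 42 members tested) in the same order, out of 15729 where no other number is given. For LPA-treated against control mice (0 as reported), lower members numbered 1 with a pseudocount of 1, 1 at a mean of at least 1 FPKM, 2 with median-ratio scaling, 2 with quantile normalization, 9 without the 2 libraries with few detected genes, 10 with median-ratio scaling without them, 1 without the 2 libraries with Xist reads, 2 with edgeR, 7 with DESeq2 and 0 to 1 with 1 mouse left out. Among all genes tested, those called lower numbered 122 as reported. In the same order they were 178, 133 (of 10575), 269, 326, 668, 852, 89, 223 (of 13594), 834 (of 18123) and 15 to 249. Higher members numbered 1 without the 2 libraries with few detected genes, with or without median-ratio scaling, 1 without the libraries with Xist reads and 1 with DESeq2. Of all genes, 678 were called higher without the 2 libraries and 619 with median-ratio scaling as well. Without the libraries with Xist reads 215 were, and with DESeq2 669 were.

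Among the members described singly, the estimates in MYO5B-knockout mice that changed sign were these log2 fold changes, and the cause was not tested. Gsta3, Gsto2, Sult1c2, Ugt1a6a, Ugt1a6b and Ugt1a9 also crossed 0 under at least 1 alternative. Without the libraries with Xist reads Ugt2b34 was 0.21 and Sult1d1 0.36. Ugt1a7c was -0.20 with median-ratio scaling, -0.13 with quantile normalization, -0.20 without the 2 libraries with few detected genes, -0.44 with both, -0.27 with edgeR and -0.30 with DESeq2. Sult1a1 was -0.076 with edgeR and -0.14 with DESeq2, Ugt2b35 was -0.037 with median-ratio scaling without the 2 libraries, Ugt1a1 was 0.93 with a pseudocount of 0.01 and Ugt8a was -0.11 with quantile normalization. With 1 mouse left out Gsta1 ran from -0.003 to 1.52, Gsta4 from -0.062 to 1.81, Gstm1 from -1.55 to 0.087, Ugt2b34 from -1.89 to 0.21, Ugt1a7c from -1.09 to 0.97, Sult1d1 from -1.83 to 0.41, Gstt2 from -0.52 to 0.13, Ugt2b35 from -0.64 to 1.48, Ugt1a1 from -1.58 to 0.89 and Ugt8a from -0.04 to 0.27.

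Control and LPA-treated mice share the numbers 4 and 5, whose deviations correlated at 0.104 and -0.355, and control and MYO5B-knockout mice share the number 5, with a correlation of 0.300. The labels tie these numbers to nothing shared and not every correlation was over 0.1, so the numbers were not taken to pair the mice. With the replicate block 0 members were called lower and 0 higher, and so were 0 of all 15729 genes. Most numbers belong to 1 mouse only, so this fit kept little to estimate the spread from. It could therefore hardly call any gene, and its 0 calls decide nothing about the members. At an unadjusted p under 0.05 there were 24 of 39 members and 3741 genes. Gstm2 was at -2.44 in this fit (limma's adjusted p = 0.159). Over all alternatives its adjusted p lay between 3.29e-08 (DESeq2) and 0.222 (limma). The MYO5B-knockout group shares only 1 number with either other group, so no block was fitted there. Depth limits members with few reads, such as Ugt2b38 and Sult1a1, most.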
